A study of Mus musculus with 8 samples.

Results

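The genes described here encode the hnRNP and SR splicing factors, the 2 large families of RNA-binding proteins that coat nascent transcripts. They were taken from the count table by name, as every gene whose symbol begins with Hnrnp or with Srsf followed by a number, leaving out names of pseudogenes, of which 0 met the pattern. The rule found 30 of the 16130 genes in the table, 20 Hnrnp and 10 Srsf genes, and all 30 passed the filter on low counts that left 14311 genes for testing. The set was picked because Hnrnpa2b1 and Hnrnpd had higher counts in one group than in the other, so the difference between the groups is given for its members as a description, with no test.

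The tissue was distal colon from mice of the genotype Tcf4Het/+ ApcMin/+, which both groups carry. One group was housed for 4 months in enriched cages (EE, n = 4) and the other for the same time in conventional, non-enriched cages (NE, n = 4). ApcMin is a truncating allele of the tumour suppressor Apc, with which mice grow intestinal adenomas; the labels do not say whether a library holds tumour or flat mucosa, or whether the libraries are 1 per animal, and p-values therefore measure no more than the spread between these 8 samples. Ribosomal RNA was depleted from total RNA, and single reads of 50 bases were counted per gene.

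The hnRNP proteins bind pre-mRNA through RNA recognition or KH domains, and many of them keep the spliceosome away from the exons and splice sites they cover. The SR proteins carry a domain rich in arginine and serine, bind exonic enhancers and recruit the splicing machinery, and their activity and location depend on the phosphorylation of that domain. Both families are expressed in nearly all cells, are abundant in dividing epithelium, and regulate their own transcripts by splicing in exons that send the message to nonsense-mediated decay.

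Library totals were 4735764 to 6266902 counts in EE and 6120185 to 10586851 in NE, and the 30 genes together had 23660 to 44813 counts in a library. Markers of colonocytes, goblet cells and crypt base cells were detected in all 8 libraries, and no gene of these lists was at 0 in any library. The EE libraries differed among themselves in non-epithelial genes. The 10 smooth muscle markers summed to 697 CPM in EE 4 and to 2364 CPM in EE 3. They summed to 4222 and 4464 CPM in EE 1 and EE 2, against 3570 to 5760 CPM in NE. CPM are counts scaled by edgeR's cpm to the library's total over the tested genes, after multiplying that total by the library's TMM factor. In the test of all genes, edgeR called 0 of 14311 genes at an adjusted p under 0.05 (0.0%), with 820 higher and 537 lower in EE at an unadjusted p under 0.05. limma-voom also called 0, and DESeq2 called 12. The authors' deposited table gives a negative log2 fold change for all 30 genes, between -0.50 and -0.05. Its sign is opposite to EE minus NE for 97.8% of the genes tested, and its header does not name the numerator.

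The 250 bases upstream of the annotated start are shown for the 4 hnRNP genes with the highest fold changes, from RefSeq on build GRCm38.p6 and on the strand of the gene. They lie at chr15:103240147-103240396 (plus strand) for Hnrnpa1, chr2:75659009-75659258 (plus strand) for Hnrnpa3, chr6:51469895-51470144 (minus strand) for Hnrnpa2b1 and chr5:99978939-99979188 (minus strand) for Hnrnpd. Capitals mark matches on either strand to the CCAAT box, to the GC box (spelled GGGCGG), to the E-box (spelled CACGTG) or to the ETS core (spelled CCGGAAG). In the Hnrnpa3 stretch 2 of the GC boxes overlap.
Hnrnpa1: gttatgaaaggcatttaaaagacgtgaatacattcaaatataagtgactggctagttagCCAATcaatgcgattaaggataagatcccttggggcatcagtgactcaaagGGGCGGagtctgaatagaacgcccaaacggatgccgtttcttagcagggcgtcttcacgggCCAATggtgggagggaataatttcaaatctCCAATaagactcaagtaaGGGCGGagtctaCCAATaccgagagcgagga
Hnrnpa3: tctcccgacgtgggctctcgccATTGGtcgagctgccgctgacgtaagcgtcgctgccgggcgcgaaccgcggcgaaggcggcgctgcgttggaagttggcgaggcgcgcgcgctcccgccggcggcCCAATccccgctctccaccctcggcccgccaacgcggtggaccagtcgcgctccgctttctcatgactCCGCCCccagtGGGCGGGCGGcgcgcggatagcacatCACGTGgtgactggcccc
Hnrnpa2b1: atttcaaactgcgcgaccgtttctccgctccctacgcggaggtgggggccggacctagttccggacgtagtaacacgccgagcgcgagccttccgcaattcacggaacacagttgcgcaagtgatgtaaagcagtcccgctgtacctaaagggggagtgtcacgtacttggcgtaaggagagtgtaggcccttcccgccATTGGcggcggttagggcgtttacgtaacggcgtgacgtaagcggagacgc
Hnrnpd: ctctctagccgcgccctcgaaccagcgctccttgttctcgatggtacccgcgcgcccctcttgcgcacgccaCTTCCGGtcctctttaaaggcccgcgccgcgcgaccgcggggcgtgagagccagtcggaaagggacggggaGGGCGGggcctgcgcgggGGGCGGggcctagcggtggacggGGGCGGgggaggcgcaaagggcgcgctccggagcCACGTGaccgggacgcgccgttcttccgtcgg
The 4 stretches have no motif in common. Hnrnpa1 holds 4 CCAAT and 2 GC boxes, and Hnrnpa3 holds 2 CCAAT boxes, 3 GC boxes and 1 E-box. Hnrnpa2b1 holds 1 CCAAT box and 0 of the other motifs, and Hnrnpd holds 3 GC boxes, 1 E-box and 1 ETS core. A match is a description of the letters and not a binding site.

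All 30 hnRNP and Srsf genes had a log2 fold change above 0 in EE against NE, where 50.3% of all genes tested did. The median was 0.25 over the members, with a range of 0.05 to 0.83, and 0.00 over all genes, of which the middle 50% lay between -0.19 and 0.19. The 20 Hnrnp genes had a median of 0.29 and the 10 Srsf genes one of 0.21. Without EE 1 both medians were 0.26, and without NE 4 they were 0.29 for Hnrnp and 0.31 for Srsf, and their difference was not tested. Over all members, 29 were above 0 with a median of 0.22 without EE 4, and 30 with a median of 0.26 without EE 3. In 10 members the lowest EE library was above the highest NE library (2.87% of all genes tested), and in 0 members was every EE library below NE (2.02%). All 10 were Hnrnp genes, namely Hnrnpa1, Hnrnpa2b1, Hnrnpa3, Hnrnpab, Hnrnpd, Hnrnph2, Hnrnpm, Hnrnpr, Hnrnpu and Hnrnpul2. Of the 30 members, edgeR and limma-voom each called 0 at an adjusted p under 0.05 and DESeq2 called 2, Hnrnpa2b1 and Hnrnpd; at an unadjusted p under 0.05 there were 12 members higher in EE (5.73% of all genes tested) and 0 lower (3.75%). Because the set was chosen from this contrast, nothing is read from these counts. In bulk tissue, more cells that express a gene and more of its RNA per cell cannot be told apart.

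**Figure D1:**
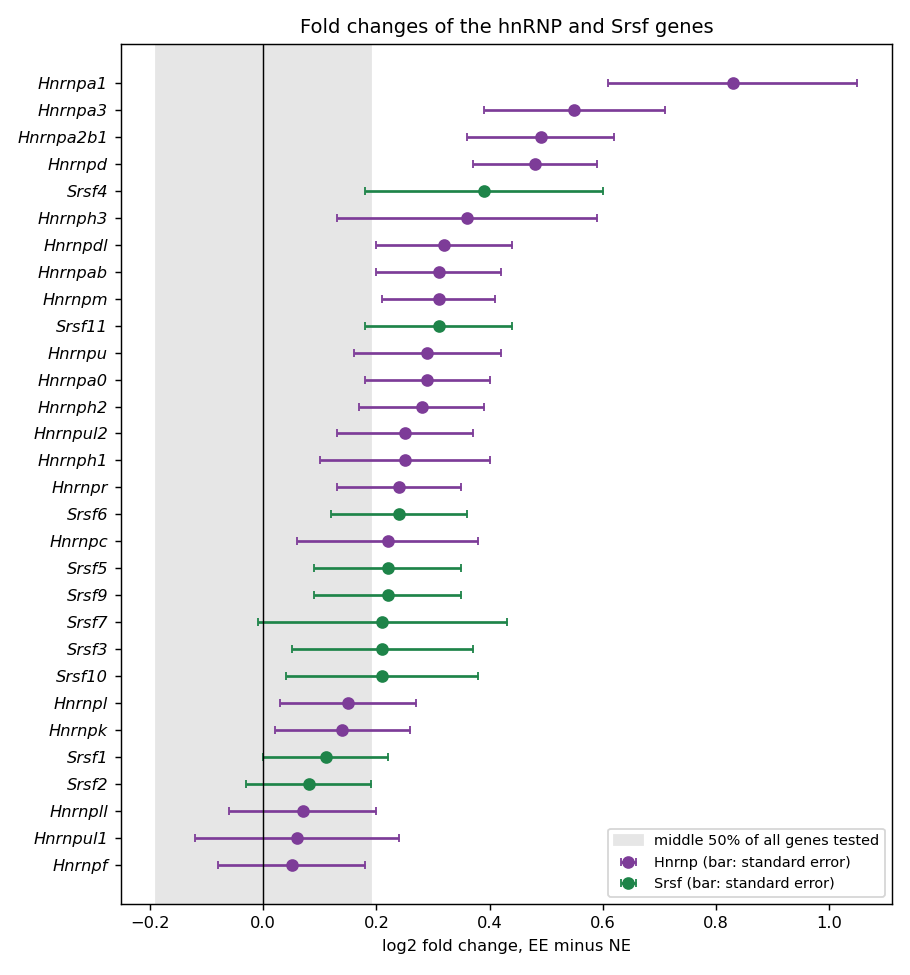
Log2 fold change of each member, EE minus NE, with its standard error (bars), against the middle 50% of all genes tested (grey band, -0.19 to 0.19). All 30 points lie above 0, from 0.05 for Hnrnpf to 0.83 for Hnrnpa1.

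The core hnRNP A/B proteins package nascent RNA and bind splicing silencers. Hnrnpa2b1, which also marks RNAs for transport, had 572, 547, 534 and 486 CPM in EE 1 to EE 4, against 337, 398, 359.5 and 424 CPM in NE 1 to NE 4. Every EE library was above every NE library, and the closest pair was EE 4 and NE 4. The log2 fold change was 0.49 (SE 0.13). Hnrnpa1, the classical repressor of exon inclusion, had 12.3, 8.61, 11.5 and 13.6 CPM in EE and 5.53, 5.45, 7.23 and 7.62 CPM in NE. These values rest on 45 to 86 counts in an EE library and 35 to 77 in an NE library, so its log2 fold change of 0.83 (SE 0.22) is both the highest of the set and among the least precise. Hnrnpa3, a close relative in the same complexes, had 29.3, 28.5, 36.1 and 43.3 CPM in EE and 23.2, 22.8, 21.6 and 26.7 CPM in NE, a log2 fold change of 0.55 (SE 0.16). The groups did not overlap, and EE 3 and EE 4 were the high libraries. Hnrnpa0, the A/B member without introns, averaged 108 ± 9.01 CPM in EE and 88.5 ± 7.32 CPM in NE (SD, n = 4 each), with groups that overlapped.

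Hnrnpd, Hnrnpdl and Hnrnpab form a related group with a pair of RNA recognition motifs each. Hnrnpd, known as AUF1, binds AU-rich elements in the 3′ ends of mRNAs and sets their stability; the gene lies at chr5:99955935-99978938 on the minus strand, and Hnrnpdl is its close neighbour at chr5:100033577-100039664 (GRCm38). Hnrnpd had 82.8, 77.3, 72.4 and 76.7 CPM in EE and 57.2, 51.6, 53.2 and 59.7 CPM in NE, a log2 fold change of 0.48 (SE 0.11). The gap between its lowest EE and its highest NE library exceeded the range within either group. Hnrnpab, a factor that binds CArG boxes as well as RNA, had 333, 303, 309 and 280.3 CPM in EE and 262, 232, 255 and 238 CPM in NE, a log2 fold change of 0.31 (SE 0.11), again without overlap. Hnrnpdl, the D-like paralogue, averaged 173 ± 18.4 CPM in EE and 139 ± 11.6 CPM in NE, and EE 4 fell inside the NE range.

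**Figure D2:**
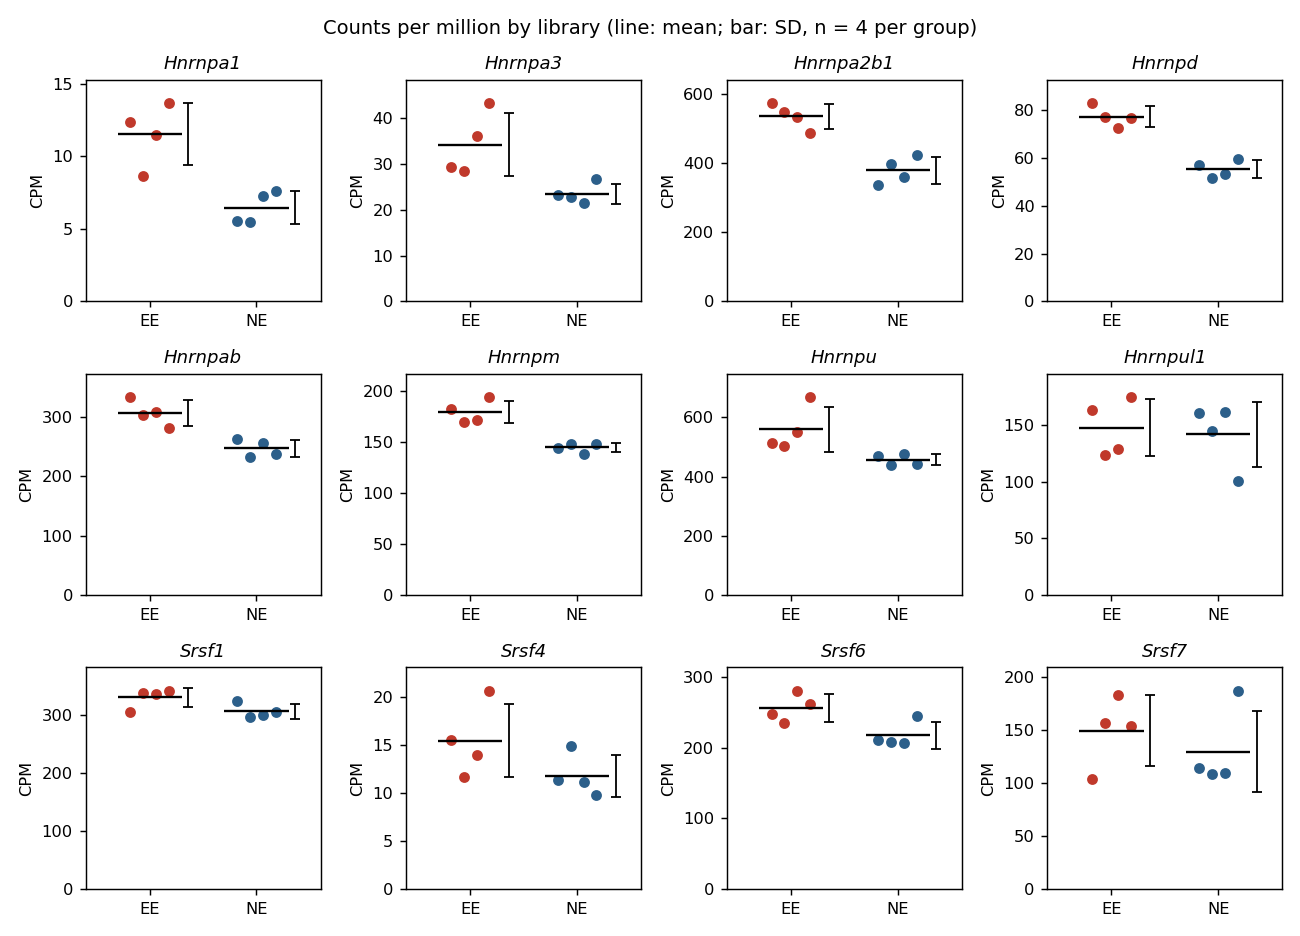
CPM of single hnRNP and Srsf genes in each library (points; EE left, NE right), with the mean and SD of each group (n = 4). Hnrnpa2b1, with 486 to 572 CPM in EE and 337 to 424 CPM in NE, is an example of groups that do not overlap.

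Among the hnRNP H/F genes, whose proteins bind runs of G, log2 fold changes ran from 0.05 for Hnrnpf to 0.36 (SE 0.23) for Hnrnph3. Differences between these genes were not tested. Hnrnph2, on the X chromosome, had 50.5, 43.2, 44.3 and 46.6 CPM in EE and 38.5, 35.5, 39.8 and 38.1 CPM in NE, with no overlap and a log2 fold change of 0.28 (SE 0.11). Hnrnph1 averaged 247 ± 34.3 CPM in EE and 207 ± 32.5 CPM in NE, and Hnrnph3 averaged 14.1 ± 2.40 CPM in EE and 10.9 ± 2.88 CPM in NE. Both overlapped. Hnrnpf had the lowest fold change of the set, with 35.5, 39.6, 41.9 and 40.1 CPM in EE, against 39.2, 34.0, 33.5 and 45.2 CPM in NE. Its highest library was NE 4 and the log2 fold change was 0.05 (SE 0.13), well inside the spread between libraries.

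Hnrnpu, the scaffold attachment factor that links RNA to chromatin, was among the most counted members. It had 514, 504, 550.4 and 667 CPM in EE, against 468, 439.6, 476 and 441 CPM in NE, a log2 fold change of 0.29 (SE 0.13). No libraries overlapped, and EE 4 was the highest. Its paralogue Hnrnpul2 had 174, 147, 147 and 196 CPM in EE and 136, 140.2, 139 and 143 CPM in NE, so that the groups were separated by a small margin. The other paralogue, Hnrnpul1, had 163, 124, 129 and 174 CPM in EE and 160.3, 145, 161 and 100.3 CPM in NE. NE 4 was its lowest library, its log2 fold change was 0.06 (SE 0.18), and it was -0.03 without EE 4 and -0.08 without NE 4.

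Among the remaining hnRNP genes, Hnrnpm, which binds GU-rich RNA and acts on the splicing switch of epithelial cells that turn mesenchymal, had 182, 170.1, 172 and 194 CPM in EE and 144, 148, 138 and 149 CPM in NE. Hnrnpr, which binds mRNA in nucleus and cytoplasm, had 75.2, 66.0, 79.5 and 80.7 CPM in EE and 64.1, 61.9, 63.7 and 65.6 CPM in NE. In both, every EE library was above NE, though EE 2 exceeded the highest NE value of Hnrnpr by less than 1 CPM. Hnrnpl, which binds CA repeats, had 334, 319, 399.6 and 357 CPM in EE and 296, 318, 320 and 337 CPM in NE, with overlap. Hnrnpll, the paralogue that sets the splicing of the leukocyte gene Ptprc, had 81.8, 95.9, 99.7 and 82.6 CPM in EE and 75.2, 79.4, 85.5 and 103 CPM in NE, a log2 fold change of 0.07 (SE 0.13). Hnrnpc, whose protein covers uridine tracts in introns, averaged 164 ± 26.1 CPM in EE and 140.5 ± 26.9 CPM in NE. Hnrnpk, a KH-domain protein that binds poly(C), averaged 301 ± 23.8 CPM in EE and 274 ± 25.9 CPM in NE. In Hnrnpll, Hnrnpc and Hnrnpk, NE 4 was the highest NE library and lay within the EE range or above it.

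In each of the 10 Srsf genes the EE and NE libraries overlapped, and over all genes tested the share with every EE library above NE was 2.87%. Their log2 fold changes lay between 0.08 and 0.39. Srsf4 had the highest of them, with 15.5, 11.7, 13.9 and 20.6 CPM in EE and 11.4, 14.9, 11.2 and 9.78 CPM in NE (log2 fold change 0.39, SE 0.21). It is the SR gene with the fewest counts, 59 to 130 in a library, and its value was 0.22 without EE 4. Srsf6, a close relative of Srsf4 and Srsf5, had 249, 235, 281 and 262 CPM in EE and 211, 208, 207 and 246 CPM in NE. Only NE 4 overlapped EE. Srsf5 had 215, 181, 164 and 218 CPM in EE and 183, 169, 143 and 176 CPM in NE, and its groups overlapped at EE 2 and EE 3.

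Srsf1, the founding SR protein, had 304, 338, 336 and 341 CPM in EE and 324, 296, 299 and 305 CPM in NE. Its log2 fold change was 0.11 (SE 0.11), and the low EE library was EE 1. Srsf2, known as SC35 and a marker of nuclear speckles, had 124, 129.8, 136 and 141 CPM in EE and 127, 117, 113 and 144 CPM in NE, a log2 fold change of 0.08 (SE 0.11). For these 2 genes the difference was about the size of its standard error or smaller. Srsf3, the smallest SR protein, Srsf7, its relative with a zinc knuckle, and Srsf10, which turns into a repressor when dephosphorylated, each had a log2 fold change of 0.21, and in all of them NE 4 was above the mean of EE. With 1 library left out the value ran between 0.14 and 0.39 for Srsf3, 0.10 and 0.43 for Srsf7, and 0.11 and 0.37 for Srsf10. The highest value of each was without NE 4, and the lowest was without NE 1 for Srsf3 and Srsf10 and without EE 3 for Srsf7. Srsf9, a relative of Srsf1, averaged 41.1 ± 6.38 CPM in EE and 35.4 ± 1.08 CPM in NE. Srsf11, known for its part in neuronal microexons, averaged 165 ± 18.9 CPM in EE and 133 ± 17.1 CPM in NE.

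Summed over the family, the Hnrnp genes held 3626 ± 111 CPM in EE, with libraries between 3478 and 3717, and 2998 ± 105 CPM in NE, with libraries between 2923 and 3152 (SD, n = 4 each). The sums did not overlap. The Srsf genes held 1539 ± 93.8 CPM in EE (1421 to 1616) and 1347 ± 141 CPM in NE (1242 to 1555), and here NE 4 lay inside the EE range.

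By the median, the members varied less between libraries of a group than all genes tested did. The median over the members of the SD of log2 CPM within a group was 0.149 in EE and 0.142 in NE, against 0.310 in EE and 0.196 in NE over all genes tested. Over the 11333 tested genes in the members' range of NE CPM, not matched to them for level within it, it was 0.276 in EE and 0.175 in NE. Their log2 fold changes had a median of 0.01, and 51.6% were above 0. The Hnrnp genes had 0.144 in EE and 0.124 in NE, and the Srsf genes 0.180 in EE and 0.167 in NE.

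Each gene's log2 CPM was set against its own mean over all libraries, and the median of these deviations was taken per library. By it the Hnrnp genes stood at 0.15, 0.06, 0.18 and 0.21 in EE 1 to EE 4 and at -0.16, -0.18, -0.14 and -0.08 in NE 1 to NE 4. The Srsf genes stood at -0.02, 0.05, 0.24 and 0.17 in EE and at -0.19, -0.14, -0.19 and 0.08 in NE. The Hnrnp medians thus separated the groups, whereas the Srsf medians did not, EE 1 and EE 2 being below NE 4. NE 4 was the highest NE library in 20 of the 30 members, and in 35.0% of all genes tested. EE 4 was the highest EE library in 14 of the 30, and in 30.9% of all genes tested. EE 2 was the highest in 1 of the 30 and the lowest in 13, against 24.8% and 24.1% of all genes tested.

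Genes listed as cell-type markers also differed between the same libraries. Tumour content is not labelled, so numbers of cells and levels per cell cannot be told apart in these values. The 8 crypt base markers stood at 0.24, -0.51, 0.48 and 0.85 in EE 1 to EE 4 and at -0.57, -0.29, -0.17 and -0.05 in NE 1 to NE 4, and the 16 cell division genes at 0.00, 0.01, 0.35 and 0.36 in EE and at -0.13, -0.25, -0.19 and -0.07 in NE. The 10 smooth muscle markers ran the other way, at 0.34, 0.35, -0.44 and -2.33 in EE and at 0.67, 0.72, 0.59 and 0.05 in NE. EE 3 and EE 4 were therefore high in crypt base and cell division genes and low in muscle genes, and NE 4 was the NE library with the highest crypt base and the lowest muscle value. In EE 2 the median deviation was -0.51 for crypt base markers, 0.01 for cell division genes and 0.06 for the Hnrnp genes. The cell division and Hnrnp medians of EE 2 were above those of every NE library, the nearest being NE 4 at -0.07 and -0.08. The Srsf median of EE 2, at 0.05, was below the 0.08 of NE 4. None of these differences was tested.

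Summed over each list, the crypt base markers held 796 to 1663 CPM in EE and 684 to 941 CPM in NE, and the cell division genes 1362 to 2004 CPM in EE and 1206 to 1297 CPM in NE. The colonocyte markers held 2734 to 8774 CPM in EE and 5766 to 10360 CPM in NE. The goblet cell markers held 9683 to 25880 CPM in EE and 22030 to 27920 CPM in NE. Both epithelial lists were at their lowest in EE 3. The immune markers held 187 to 1272 CPM in EE and 817 to 1670 CPM in NE, the neuron and glia markers 13.3 to 55.3 CPM in EE and 39.1 to 70.1 CPM in NE, and the fibroblast markers 507 to 2023 CPM in EE and 1450 to 1697 CPM in NE. The lowest EE sum of the muscle, neuronal, immune and fibroblast lists was that of EE 4.

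All 8 crypt base markers and all 16 cell division genes had a log2 fold change above 0, with medians of 0.56 and 0.35, whereas all 10 colonocyte, 8 goblet cell, 10 smooth muscle, 8 neuron and glia and 12 immune markers tested had one below 0, with medians of -0.46, -0.47, -0.76, -0.79 and -0.62. The fibroblast median was -0.15. These medians depended on single libraries. With 1 library left out, the crypt base median lay between 0.39 and 0.75. The cell division median then lay between 0.29 and 0.45, and the goblet cell median between -0.64 and -0.33. The colonocyte median was -0.20 without EE 3, -0.29 without EE 4 and -0.72 without EE 1, and that of immune markers was -0.27 without EE 4 and -0.40 without NE 4. The smooth muscle median was -0.43 and the neuron and glia median -0.48 without EE 4, and the neuron and glia median was -0.52 without EE 3. The fibroblast median lay between -0.43 without EE 3 and 0.10 without EE 4. In each list 0 genes were called by edgeR. Those with the smallest p included Axin2 (0.86, SE 0.28) and Znrf3 (0.88, SE 0.29) among crypt base markers and Bub1 (0.52, SE 0.17) and Mcm3 (0.48, SE 0.17) among cell division genes. They also included Slc37a2 (-1.05, SE 0.27) and Aqp8 (-0.73, SE 0.30) among colonocyte markers. What part these shifts have in the values of the splicing factors was not tested.

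**Figure D3:**
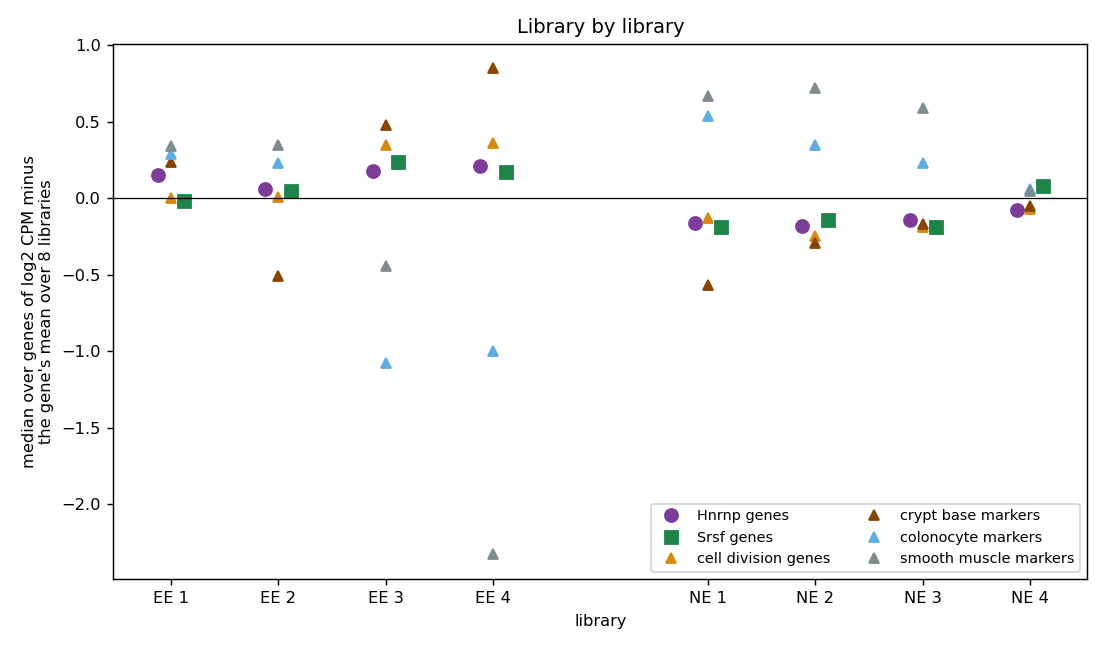
Median deviation in log2 CPM from each gene's own mean over all libraries, for the Hnrnp genes, the Srsf genes and lists of cell-type genes in each library. The Hnrnp medians are 0.06 to 0.21 in EE and -0.18 to -0.08 in NE, while the smooth muscle markers reach -2.33 in EE 4.

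Levels were compared between genes as CPM per kilobase of annotated exon. Hnrnpab was the highest, at 110.1 ± 7.74 in EE and 88.7 ± 5.0 in NE, followed by Hnrnpa2b1 at 81.2 ± 5.53 in EE and 57.7 ± 5.92 in NE. Hnrnpl, at 59.2 ± 5.91 in EE and 53.4 ± 2.79 in NE, was within an SD of the leading SR gene, Srsf1, at 57.8 ± 2.98 in EE and 53.6 ± 2.25 in NE. Srsf6, at 53.4 ± 4.02 in EE and 45.3 ± 3.92 in NE, and Srsf5, at 48.8 ± 6.56 in EE and 42.0 ± 4.40 in NE, came next and were also within an SD of each other. Hnrnpd was 24th of 30, at 10.5 ± 0.58 in EE and 7.54 ± 0.50 in NE.

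The order depended on the length used. With the longest annotated transcript in place of all exonic bases, Hnrnpa2b1 led at a mean over all libraries of 125.4 CPM per kilobase, Hnrnpl followed at 125.1 and Hnrnpab was the third at 116.6. Among the SR genes Srsf2, at 67.9, then stood next to Srsf6, at 67.3, and above Srsf1, at 59.3, and Srsf5, at 52.0. Hnrnpa1, one of the most abundant nuclear proteins of cultured cells, was last by either length, at 3.65 ± 0.67 CPM per kilobase of exon in EE and 2.05 ± 0.36 in NE.

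**Figure D4:**
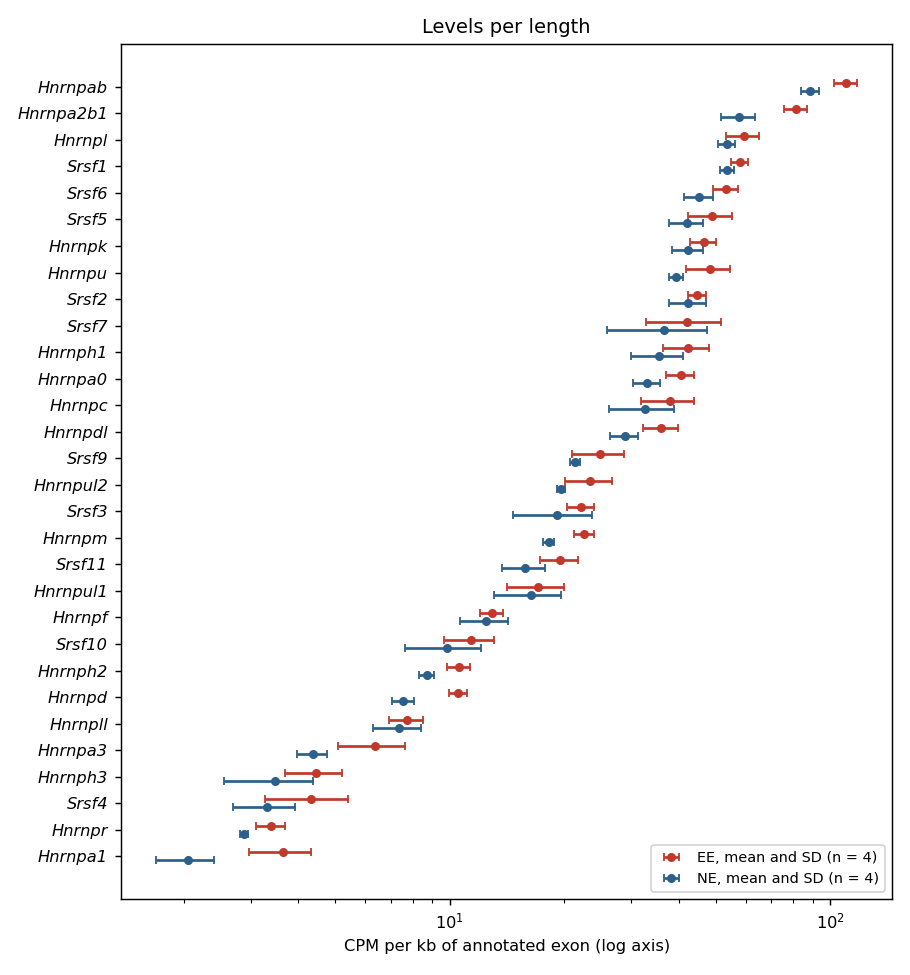
Level of each member in CPM per kilobase of annotated exon (log axis), as the mean and SD of the 4 EE and the 4 NE libraries. Hnrnpab leads at 110.1 in EE and 88.7 in NE, and Hnrnpa1 is lowest at 3.65 in EE and 2.05 in NE.

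Because reads were 50 bases long, a gene whose transcripts share stretches of that length with other loci may lose or gain reads. Of all 50-base windows in the transcripts of Hnrnpa1 annotated as protein-coding, 46.7% also occurred in a transcript of a gene elsewhere in the genome. At least 1 of them was held by 19 pseudogenes. Of the windows in its coding sequence, 80.8% occurred in a pseudogene. For Hnrnpa3 the shares were 27.6% of all windows, with 41 pseudogenes, and 97.7% of coding windows. Coding windows were found in a pseudogene to 96.1% for Hnrnpf, 86.5% for Srsf3, 75.8% for Srsf10 and 75.1% for Hnrnpk. None of the pseudogenes of Hnrnpa1 and Hnrnpa3 is a row of the count table. The sources used here do not give the treatment of reads with several matches, and the part of shared sequence in the levels was not tested.

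Hnrnpf shared 43.2% of its windows with loci elsewhere, Srsf3 31.5%, Srsf5 23.6% and Hnrnpk 20.8%. Per length, Srsf5 and Hnrnpk were the 6th and 7th highest members, Srsf3 the 17th, Hnrnpf the 21st, Hnrnpa3 the 26th and Hnrnpa1 the 30th. The 6 members with 20% or more of their windows elsewhere had a median level of 16.7 CPM per kilobase, between 2.85 and 45.4, and the other 24 one of 27.8, between 3.14 and 99.4. Their median log2 fold changes were 0.22 and 0.25. Hnrnpa2b1 shared 1.6% of its windows with loci elsewhere and Hnrnpd 0.7%, with a further 4.9% of Hnrnpd in an overlapping gene. Hnrnpa1 and Hnrnpa3, with the highest log2 fold changes of 0.83 and 0.55, shared 46.7% and 27.6%. The part of shared sequence in the fold changes was not tested.

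**Figure D5:**
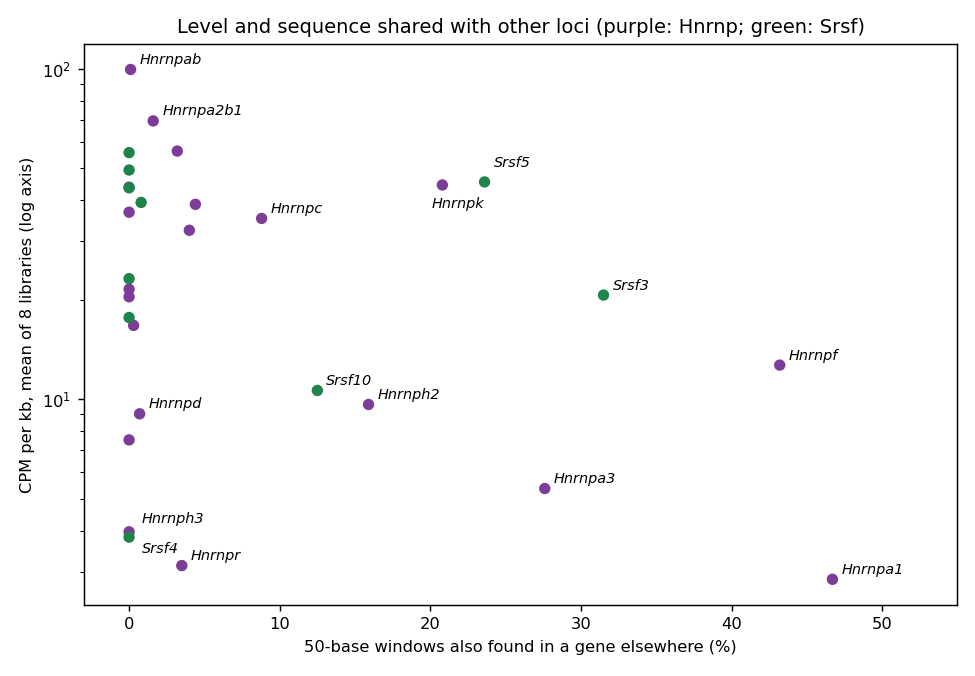
Mean level over the 8 libraries in CPM per kilobase (log axis) against the percentage of 50-base windows that also occur in a gene elsewhere, 1 point per member. Hnrnpa1, at 46.7% shared windows, has the lowest level, and Hnrnpa3, at 27.6%, is 26th of the 30 members at 5.36. Hnrnpf at 43.2% and Srsf3 at 31.5% are at 12.7 and 20.6.

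Some members also overlap another annotated gene. Srsf4 shares 65.4% of its windows with the antisense gene Gm12992, Srsf2 31.8% with Mettl23 and Mfsd11, Hnrnpab 23.7% with Phykpl and Hnrnpm 21.6% with March2. The sources used here do not say if counting used the strand, and the counts of these members may hold reads of their neighbours. Of these, Hnrnpab is the highest member per length of exon and Srsf4 the 28th of 30.

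Transcripts annotated as targets of nonsense-mediated decay, the class made by the autoregulatory exons of these families, are listed in GENCODE M21 for 19 of the 30 members (63.3%). They are listed for 9 of 10 Srsf genes (90.0%), 10 of 20 Hnrnp genes (50.0%) and 3691 of 13326 tested protein-coding genes (27.7%). Counts per gene do not separate these transcripts from those that encode the protein. The 14 factors of the decay pathway that were tested had log2 fold changes with a median of 0.14, 11 of them above 0 and 0 called. The 3 with the smallest p were Smg9 (0.31, SE 0.17), Upf2 (0.17, SE 0.11) and Smg6 (0.30, SE 0.20), and for Upf2 every EE library was above NE.

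Promoter windows of 250 bases before to 50 bases after the start were in the RefSeq table for 28 of the 30 members, which have 40 such windows. Hnrnpll and Hnrnpul2 were not matched. The windows were rich in CpG, with a median of 31.5 CpG and 67.8% GC, against 19 CpG and 60.3% GC over 13511 windows of tested genes and 7 CpG and 52.7% GC over all 32851 windows. Each motif was searched on both strands. Some genes have several windows, which can overlap, so the windows are not independent. Counted by gene, the GC box was in 23 of 28, CCAAT in 17 and the ETS core in 6. The GC box GGGCGG was in 33 of 40 windows (82.5%; 59.6% of windows of tested genes and 35.7% of all), and CCAAT in 21 (52.5%; 36.9% and 37.4%). The E-box CACGTG was in 5 (12.5%; 9.4% and 7.2%), those of Hnrnpa3, Hnrnpd, Hnrnpf, Hnrnph2 and Hnrnpm. The ETS core CCGGAAG was in 10 (25%; 15.7% and 8.9%) and the TATA box, spelled TATAAA, in 4 (10%; 8.0% and 13.6%).

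Longer motifs were rare in these windows. The NRF1 palindrome was in 1 window (2.5%; 1.9% and 1.0%), that of Srsf11. The cAMP response element TGACGTCA was in 0 (2.9% and 1.8%), and the YY1 motif in 0 (1.8% and 0.9%). No motif was in the windows of every member.

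Other genes of the splicing machinery were read from lists of their own, in each of which edgeR called 0 genes and none of the 12 genes called by DESeq2 stands. Of 18 hnRNP proteins with other gene names, 16 had a log2 fold change above 0 and the median was 0.31. Pcbp1, a poly(C)-binding protein, had 0.39 (SE 0.11), and Khsrp, a KH-domain factor of AU-rich decay, 0.48 (SE 0.16). Pcbp1 had all EE libraries, 106 to 122 CPM, above NE, at 80.1 to 99.95 CPM. Of 19 SR-related regulators, 18 were above 0, with a median of 0.22. Srrm1, a coactivator that bridges SR proteins to the spliceosome, had 0.52 (SE 0.16) and Pnn, which associates with the exon junction complex, 0.32 (SE 0.12), both without overlap. Srrm2, a scaffold of nuclear speckles, had 0.54 (SE 0.24), with 854 CPM in EE 4 and 371 to 454 CPM in the other EE libraries, against 336 to 378 CPM in NE.

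The 13 SR protein kinases and nuclear import receptors had a median of 0.06 on the log2 scale, with 11 above 0. The smallest p were those of Clk2 (0.38, SE 0.18) and Srpk1 (0.24, SE 0.12), kinases of the arginine and serine domain, and of Tnpo1 (0.16, SE 0.13), the import receptor of hnRNP A proteins. The 24 Sm, U1 and U2 snRNP proteins tested had a median of 0.19, with 22 above 0, among them the U2 proteins Sf3a2 (0.43, SE 0.19) and Snrpa1 (0.29, SE 0.14) and the U1 protein Snrnp70 (0.22, SE 0.12). The 22 proteins of the tri-snRNP and the catalytic spliceosome had 0.18, with 17 above 0, among them the GTPase Eftud2 (0.38, SE 0.13), Prpf4 (0.35, SE 0.14) and Prpf6 (0.25, SE 0.11). The 19 tissue-restricted splicing regulators tested had 0.06, with 11 above 0, among them Rbm20, known for the splicing of titin in heart (0.79, SE 0.27), Khdrbs1, known as Sam68 (0.31, SE 0.12), and Rbm24 (0.68, SE 0.30). Of the 8 below 0, Mbnl1 (-0.23, SE 0.13), named after its values were seen, had every EE library below NE. No difference between these lists and the Hnrnp and Srsf genes was tested.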

How the data were processed

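Reads of 50 bases from 8 stranded, ribosomal RNA-depleted libraries (4 EE, 4 NE) were processed by the authors. Novoalign 2.08.01, DESeq 1.14.0 and build mm10 are named by the submitters' processing notes. The sources used here do not give the annotation, the counting program or the handling of multiple matches. The authors deposited whole-number counts per gene. The deposited table also has the authors' log2 fold change, which is described by its range and sign, and the authors' adjusted p-value (FDR), which was not used.

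Counts were fitted in R 4.3.3 with edgeR 4.0.16 (filterByExpr, TMM scaling, robust quasi-likelihood test, Benjamini-Hochberg adjustment over 14311 genes, threshold 0.05, no covariate). The biological coefficient of variation was 0.219. CPM used TMM-scaled library sizes, and log2 CPM a prior count of 2. The totals of 4735764 to 10586851 counts limit the precision of low genes. Exon lengths and transcripts came from GENCODE M21 (GRCm38, the assembly of mm10), which held 15948 of the 16130 identifiers, and promoters from RefSeq (GRCm38.p6). The windows of a member came from its protein-coding transcripts only. A window counted as shared if a transcript of another gene, of any type, held its 50 bases on either strand.

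The members and lists were chosen with earlier results of these data known. Values per library are given for Hnrnpa2b1, Hnrnpd, the 5 members with the highest and the 5 with the lowest fold change, the 3 highest per length in each family, and members whose groups do not overlap; lists name up to 3 genes with the smallest p. Alternatives were DESeq2 1.42.0, limma-voom (limma 3.58.1), scaling by RLE or the upper quartile, a filter of 1 CPM in 4 libraries or none, a threshold of 0.1, the replicate number as a block, and each library left out. The tests were tried on counts simulated for EE against NE over 14311 genes. Each gene was drawn independently with the dispersion that edgeR estimated for it. Shifts shared by many genes, and changes under 2-fold such as those of the members, were not simulated. Of 100 genes made 4-fold different edgeR found 91, limma-voom 90 and DESeq2 93, and of 100 made 2-fold different 56, 56 and 71. False calls numbered 3, 3 and 21. Features of the proteins were not analysed here, and 1 gene and 1 sequence are not reported here.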

Additional observations from a re-analysis of the deposited data

Results flagged for a closer look

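Each member's 4 libraries of a group, and the summed level of each list, were screened for a single library far from the rest, which chance marks in about 1 of 20 groups. In 3 of 90 groups 1 library stood apart, where 4.5 are expected by chance. Srsf1 had 304.5 CPM in EE 1, below the 336.2 to 340.9 CPM of the other EE libraries. Srsf6 had 246.0 CPM in NE 4, above the 206.6 to 210.6 CPM of the other NE libraries, and Srsf7 had 187.0 CPM in NE 4, above their 108.5 to 114.5 CPM. Both SR genes high in NE 4 lie within the EE range or just above it in that library.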

How the results depend on the processing

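The count of members with a log2 fold change above 0 was 30 under every scaling, filter and test tried and 29 to 30 with 1 library left out. It was 29 without EE 4 and without NE 4, where Hnrnpul1 was below 0, and without NE 3, where Hnrnpf was 0 to 2 decimals. The median over the members was 0.22 to 0.30 over all settings. Genes with an adjusted p under 0.05 numbered 12 with DESeq2, and 0 to 1 with 1 library left out, the 1 without EE 2. Members called numbered 2 with DESeq2 and 0 under the other settings. Members with an unadjusted p under 0.05 numbered 6 to 15 with 1 library left out, among them 7 without EE 1 and 6 without NE 2. Over all genes, the unadjusted counts were 421 to 1413 higher and 244 to 1332 lower with 1 library left out, and limma-voom gave 829 lower. Of these, 421 and 244 were without NE 1, 462 and 258 without NE 2, 340 lower without NE 3, and 1413 and 1332 without EE 2. The cause of these differences was not tested. With the replicate number as a block, 0 genes were called, 634 were higher and 772 lower at an unadjusted p under 0.05, 9 of them members, and the members' median was 0.24. The deviations of same-numbered libraries correlated at 0.254, 0.010, -0.180 and -0.037, and those of other pairs at -0.403 to 0.488. Such correlations cannot show whether the numbers pair the samples, because a shared cage or day need not leave a mark on them. DESeq2 gave no adjusted p for 9 genes. Depth limits Hnrnpa1, Hnrnph3 and Srsf4, which had 35 to 130 counts in a library.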
